A study of Homo sapiens with 8 samples.

Results

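The genes described here are 37 enzymes, transporters and regulators of glucose uptake, glycolysis, lactate handling and the pentose phosphate pathway, out of 18664 genes in the table. They were taken by gene symbol from a fixed list of names, and all 37 were found, on 160 transcript rows. The RNA was from HT29 cells, a line of human colorectal adenocarcinoma origin, kept in medium with 10% FBS. The shALDH1A1 libraries (4) came from cells that stably carried a lentiviral short hairpin RNA against ALDH1A1, which encodes a cytosolic aldehyde dehydrogenase. The CTRL libraries (4) came from cells that the labels call shControl and wild type and that the design text calls parental, so whether they carried a control hairpin was not settled by these sources. The text of the study does not say which of its human hairpins was sequenced, and no source says that replicates were separate cultures, so p-values measure the spread between these libraries, which may be technical.

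Glycolysis splits glucose into pyruvate in a fixed order of steps, and lactate dehydrogenase then reduces pyruvate to lactate. Most steps can be carried out by several isozymes, which are products of different genes that catalyse the same reaction and are used to different degrees by tissues. The pentose phosphate pathway branches off after the first phosphorylation and supplies NADPH and ribose for nucleotides. The study asked how loss of ALDH1A1 changes expression in these cells, with LDHA, the muscle-type lactate dehydrogenase subunit, among its genes of interest.

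Counts are the authors' estimates of reads per transcript, summed per gene, and need not be whole. The libraries held 536575 to 1908803 counts in shALDH1A1 and 291260 to 4137111 in CTRL. The targeted gene ALDH1A1 had 0 to 3 counts per shALDH1A1 library, against 83 to 1870 per CTRL library. Markers of other tissues were present in both groups, and those of stomach were high in the CTRL libraries. All 14 stomach markers were above 0 in each of them and took 3.28 to 38.7% of their counts, against 0.00194 to 0.0387% in shALDH1A1 libraries. Muscle markers took 3.39% of CTRL replicate 1, 0.0415 to 0.0889% of the other CTRL libraries and 0.00016 to 0.0454% of shALDH1A1 libraries. Red blood cell markers took 0, 7e-05, 0.0255 and 0.0522% of shALDH1A1 replicates 1 to 4. In CTRL replicates 1 to 4 they took 0.0988, 0, 0.0278 and 0.00222%. Leukocyte markers took 0.0840 to 0.116% of shALDH1A1 counts and 0.0885 to 0.212% of CTRL counts. LYZ made up most of the shALDH1A1 part, with 1702.9, 1590.4, 1679.4 and 447.7 counts in replicates 1 to 4. In CTRL replicates 1 to 4 LYZ had 577.9, 155.7, 781.3 and 134.4 counts. JCHAIN went the other way, at 9, 3, 24 and 3 counts in shALDH1A1 against 3920, 145, 6078 and 1253 in CTRL. PTPRC, CD3E, CD79A, MS4A1 and CD68 each reached at most 15 counts in shALDH1A1 and 201 in CTRL. The shares of the groups thus rested in part on different markers. Each shALDH1A1 library had counts for 7 to 11 of 13 colon epithelium markers, and each CTRL library for 8 to 12. These 13 took 0.00293 to 0.0173% of shALDH1A1 counts and 0.0164 to 0.133% of CTRL counts, with CDX2 at 0 counts in every CTRL library and at 3 counts in shALDH1A1 replicate 4 alone. The part of these differences in the results below was not tested, and in bulk RNA fewer cells of a type and less RNA per cell cannot be told apart.

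The 37 genes together held 1675, 2722, 2151 and 744 counts in shALDH1A1 replicates 1 to 4, which is 0.0878, 0.196, 0.128 and 0.139% of each library. In CTRL replicates 1 to 4 they held 15655, 809, 11703 and 4145 counts, or 0.674, 0.278, 0.283 and 0.249%. The groups did not overlap in this share, although the CTRL libraries spanned a wider range. Members with any count numbered 20, 25, 28 and 25 in shALDH1A1 libraries and 35, 27, 36 and 30 in CTRL libraries. At a minimum of 10 counts there were 5, 14, 12 and 8 members in shALDH1A1 libraries and 32, 13, 33 and 25 in CTRL libraries, so CTRL replicate 2, the shallowest library, was as sparse as the shALDH1A1 libraries.

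The make-up of those counts also differed. GPI, glucose-6-phosphate isomerase, which turns glucose 6-phosphate into fructose 6-phosphate, held 85.5, 72.5, 76.4 and 65.7% of all member counts in shALDH1A1 libraries. In CTRL libraries it held 3.15, 43.9, 4.03 and 2.82%. GPI was thus the most counted member in every shALDH1A1 library and in CTRL replicate 2, whereas GAPDH led in CTRL replicates 1 and 4 and BSG in CTRL replicate 3. On the TPM scale, which divides by transcript length, GPI still held 81.0, 55.2, 60.4 and 59.2% of the member TPM in shALDH1A1 libraries, and 1.08, 21.1, 1.50 and 0.919% in CTRL libraries.

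GPI, PFKM, PGK1 and TIGAR, picked out after their values were seen, held 95.9, 83.7, 86.3 and 82.1% of the member counts in shALDH1A1 libraries and 6.61, 51.0, 7.38 and 6.83% in CTRL libraries. The other 33 genes were left with 68, 444, 294 and 133 counts in shALDH1A1 libraries and 14620, 396, 10839 and 3862 counts in CTRL libraries. Against 20 widely used genes outside glucose metabolism, those 33 genes had 21.0, 24.1, 12.8 and 28.1 counts per 100 in shALDH1A1 libraries and 15.2, 14.1, 18.2 and 10.3 in CTRL libraries, ranges that overlap. The 20 genes themselves took 0.0170 to 0.137% of shALDH1A1 counts and 0.963 to 4.15% of CTRL counts. Relative to them, GPI, PFKM, PGK1 and TIGAR together had 496, 124, 80.7 and 129 counts per 100 in shALDH1A1 libraries and 1.07, 14.7, 1.45 and 0.755 in CTRL libraries.

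**Figure D1:**
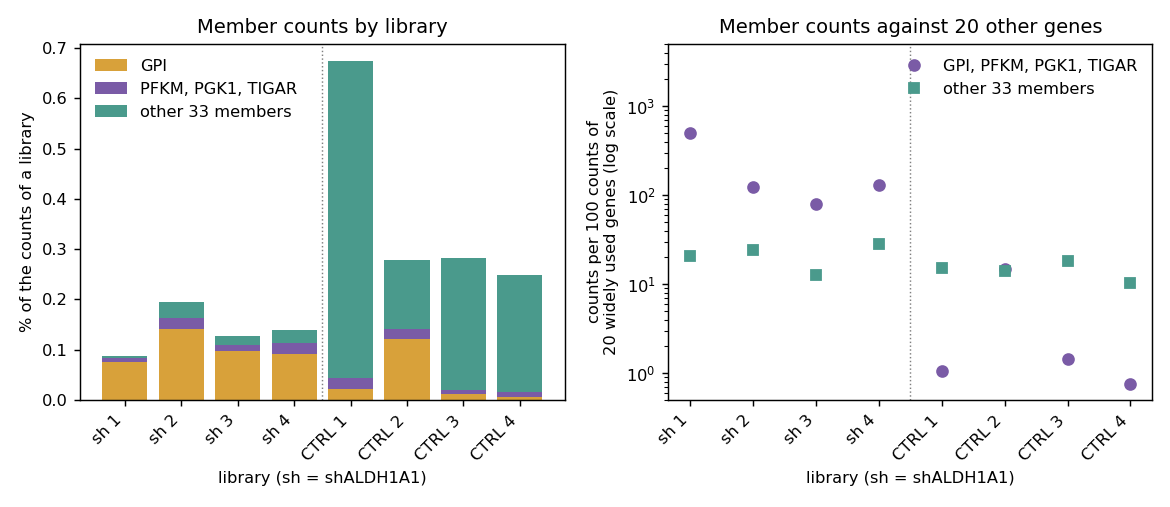
Left, percent of each library's counts held by GPI, by PFKM, PGK1 and TIGAR together, and by the other 33 members (stacked bars). Right, counts of the same 4 genes and of the other 33 per 100 counts of 20 widely used genes, on a log axis. GPI fills most of each shALDH1A1 bar and little of the CTRL bars other than replicate 2, and the squares for the 33 genes overlap between the groups.

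Of the 37 members, 23 had enough counts for edgeR's quasi-likelihood test, run after scaling the libraries by TMM factors (trimmed means of the ratios between libraries), and 14 were not tested. At an adjusted p under 0.05, 8 of the 23 (34.8%) were lower in shALDH1A1 cells, against 33.0% of all 7971 tested genes, so the share was near the background. No member was higher, against 2.60% of all tested genes. At an unadjusted p under 0.05, 1 member (TIGAR) was higher, as were 7.46% of all tested genes. DESeq2 called 3 members higher (9.45% of all genes) and limma on log2(TPM + 1) called 2 (9.12% of all genes). The median log2 fold change, shALDH1A1 over CTRL, was -2.27 over the tested members and -1.44 over all tested genes. In 11 of the 23 (47.8%) every shALDH1A1 library was below every CTRL library in TPM, which also held for 34.9% of all tested genes, and no member lay wholly above, against 8.22%.

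The study's methods name an adjusted p under 0.001 and an absolute log2 fold change over 1, with another algorithm. The legend of its volcano plot for this comparison gives a p under 0.05. At the thresholds of the methods edgeR called no member lower, against 4.89% of all tested genes. The number of members called lower rested on single libraries. It was 21 of 28 tested members without CTRL replicate 2, 17 of 26 without CTRL replicate 4, 5 of 29 without shALDH1A1 replicate 1 and 4 of 27 without shALDH1A1 replicate 4. The shares over all genes tested moved too, to 60.4% without CTRL replicate 2, 44.03% without CTRL replicate 4, 22.5% without shALDH1A1 replicate 1 and 23.9% without shALDH1A1 replicate 4. Without CTRL replicate 2, 17.3% of all tested genes were called higher, and GPI, PFKM and TIGAR were among those called higher. Scaling to the 20 genes raised the median of all genes to 1.97, and then 1 member (FBP1) was lower, where 5.01% of all genes were, and 5 (GPI, PFKM, PFKFB2, PGK1 and TIGAR) were higher, where 43.6% of all genes were.

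**Figure D2:**
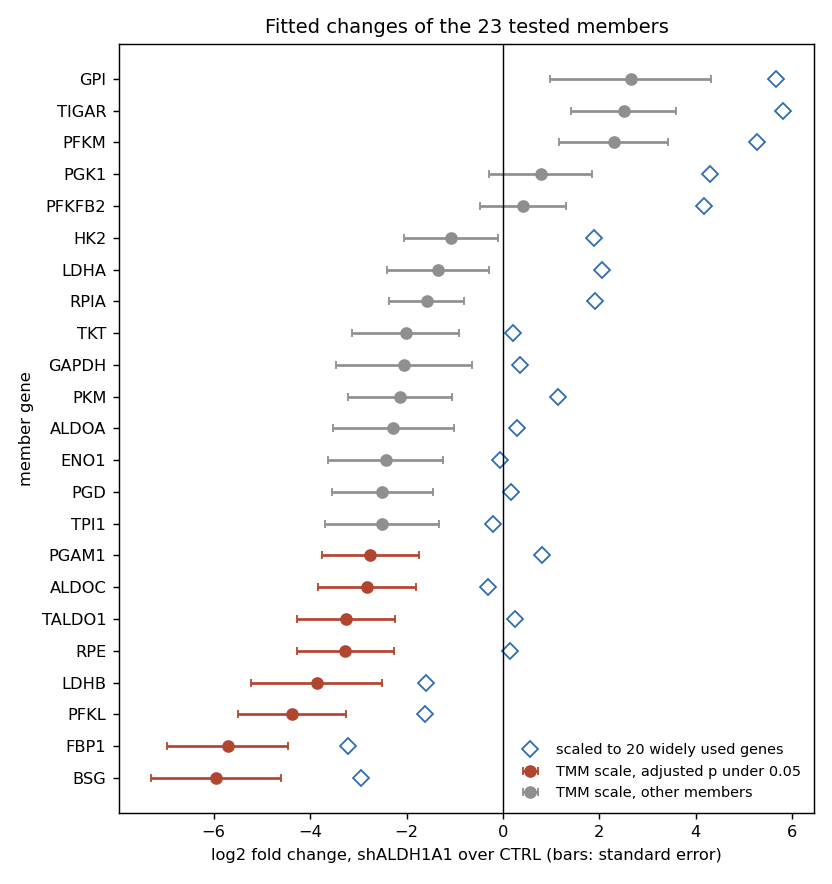
Fitted log2 fold change of the 23 tested members (circles with standard errors, red where the adjusted p was under 0.05) and the same on the 20-gene scale (open diamonds). BSG, at -5.95, and FBP1, at -5.71, stand lowest, and 5 members have positive values on the TMM scale.

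The 3 glucose transporters among the members were sparse in both groups. SLC2A1, the basal transporter GLUT1, had 0, 0, 0 and 1 counts in shALDH1A1 libraries and 26, 0, 69 and 0 in CTRL libraries. SLC2A3, the high-affinity transporter GLUT3, had 6, 7, 3 and 6 counts in shALDH1A1 libraries and 28, 1, 64 and 3 in CTRL libraries. SLC2A2, the liver and islet transporter GLUT2, had no count in any library. SLC2A3 thus carried 22 of the 23 counts of these 3 members in shALDH1A1 (95.7%, exact 95% interval 78.1 to 99.9%) and 96 of 191 in CTRL (50.3%, 43.0 to 57.6%), on the single row NM_006931.3. No shALDH1A1 library reached 10 counts at this step, so the shares were not tested, and the CTRL share came from replicates 1 and 3. Because amplified reads carry no molecular identifiers here, all such intervals cover counting error only. Both SLC2A1 and SLC2A3 were below the filter of the test. Transporters of the same family outside the 37 had more counts. SLC2A4, the insulin-responsive GLUT4, had 22, 17, 23 and 10 counts in shALDH1A1 libraries and 49, 3, 41 and 5 in CTRL libraries. SLC2A5, the fructose transporter GLUT5, had 1687, 897, 1176 and 199 counts in shALDH1A1 libraries and 22.3, 146, 11 and 8.7 in CTRL libraries.

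Lactate leaves and enters cells through monocarboxylate transporters. SLC16A1, which encodes MCT1, had 3, 4, 2 and 13 counts in shALDH1A1 libraries and 62, 0, 111 and 4 in CTRL libraries. SLC16A3, the lactate exporter MCT4, had no count in any shALDH1A1 library and 4, 0, 29 and 0 counts in CTRL libraries. All 22 counts of these 2 members in shALDH1A1 were therefore SLC16A1, which leaves room for an SLC16A3 share of up to 15.4% by the exact interval, and the SLC16A3 share was 15.7% (11.1 to 21.4%) of 210 counts in CTRL. A difference was not detectable at this depth. Outside the 37, SLC16A7, which encodes MCT2, had 274, 362, 246 and 422 counts in shALDH1A1 libraries and 54.5, 118, 308 and 16.8 in CTRL libraries.

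BSG, or basigin, the chaperone that carries both transporters to the cell surface, had 2, 3, 1 and 0 counts in shALDH1A1 libraries. It had 677, 19, 1825 and 135 counts in CTRL libraries. In TPM it was 2.90 ± 2.78 in shALDH1A1 and 219 ± 165 in CTRL cells (SD, n = 4 each), with no overlap between the groups. BSG fell by 5.95 on the log2 scale (standard error, SE, 1.36, adjusted p = 0.00173, edgeR). It passed in every leave-one-out fit, and on the 20-gene scale it was -2.94 with an adjusted p of 0.0582. Most of its CTRL counts (91.0%) lay on the row NM_198589.3.

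Hexokinase traps glucose in the cell by phosphorylation, with HK1 as the widely expressed form and HK2 as the form of insulin-sensitive tissue and many tumors. HK1 had 0, 3, 1 and 2 counts in shALDH1A1 libraries and 321, 0, 413 and 33 in CTRL libraries. HK2 had 0, 5, 12 and 9 counts in shALDH1A1 libraries and 149, 3, 209 and 28 in CTRL libraries. HK2 made up 81.3% (63.6 to 92.8%) of 32 hexokinase counts in shALDH1A1 and 33.7% (30.9 to 36.5%) of 1156 in CTRL. In the libraries with at least 10 hexokinase counts, the HK2 share of TPM was 88.6 and 74.5% in shALDH1A1 replicates 3 and 4, and 23.0, 24.6 and 35.4% in CTRL replicates 1, 3 and 4. These shares did not overlap but could not be tested by the rule that all 8 libraries reach 10 counts, and CTRL replicate 2 held 3 counts, all of them HK2. As a level, HK2 had a fitted log2 difference of -1.08 (SE 0.97, adjusted p = 0.343), or -2.08 (adjusted p = 0.0305) without CTRL replicate 2, and HK1 was not tested. The shALDH1A1 counts lay wholly on NM_001371525.1 for HK2 and NM_001322366.1 for HK1, which held 75.7 and 63.9% of their CTRL counts.

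At the isomerase step, GPI has no isozyme. Its counts were 1433, 1973, 1643 and 489 in shALDH1A1 libraries and 493, 355, 471 and 117 in CTRL libraries. In TPM it was 800, 1493, 1018 and 980 in shALDH1A1 libraries and 62.8, 820, 38.7 and 16.8 in CTRL libraries. CTRL replicate 2 lay above shALDH1A1 replicate 1, so the groups overlapped through that library. In log2 units the fitted difference was 2.65 (SE 1.67, adjusted p = 0.187), and 3.95 (adjusted p = 7.32e-05) without CTRL replicate 2. The counts were spread over 8 transcript rows, each with 4.26 to 15.8% of the shALDH1A1 counts, whereas NM_000175.5 led in CTRL with 26.4%.

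Phosphofructokinase commits sugar to glycolysis and exists as liver (PFKL), muscle (PFKM) and platelet (PFKP) types. PFKL had 0, 3, 1 and 1 counts in shALDH1A1 libraries and 164, 5, 424 and 84 in CTRL libraries. PFKM had 51.1, 151, 85.3 and 52.1 counts in shALDH1A1 libraries and 111, 20.1, 90.9 and 24.0 in CTRL libraries. PFKP had 0, 4, 2 and 0 counts in shALDH1A1 libraries and 34, 0, 97.0 and 14 in CTRL libraries. By the counts as the authors assigned them, the shALDH1A1 libraries therefore held almost only PFKM. The CTRL libraries, replicate 2 least, held a mixture led by PFKL in replicates 1, 3 and 4. The PFKM counts of shALDH1A1 were not whole, so they rest on how the authors' estimation divided the reads.

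Phosphofructokinase had at least 10 counts in all 8 libraries. PFKL made up 0, 2.26, 1.51 and 2.26% of the phosphofructokinase TPM in shALDH1A1 libraries and 52.9, 23.0, 67.3 and 68.2% in CTRL libraries. The difference in mean share, shALDH1A1 minus CTRL, was -51.3 percentage points (p = 0.0286 by exact permutation, two-sided, which is the lowest value that 4 libraries against 4 can give). No other step met this minimum, so with 1 step tested the adjusted p is the same. In the shALDH1A1 libraries the minimum was met through PFKM (51.1, 151, 85.3 and 52.1 counts). PFKL had 0 to 3 counts in them and PFKP 0 to 4. A low PFKL share there was thus partly set by what let the step enter, and the p-value gives it no separate support. PFKM made up 96.7 ± 2.66% in shALDH1A1 and 35.2 ± 29.1% in CTRL cells (SD, n = 4 each), with CTRL replicate 2 at 77.0%. Without CTRL replicate 2 the difference was -61.3 points, where an exact permutation of 3 libraries against 4 cannot go below p = 0.0571. A share within a step does not depend on the scaling between libraries.

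As levels, PFKL fell by 4.37 on the log2 scale (SE 1.12, adjusted p = 0.00406, edgeR), and it passed in every leave-one-out fit. On the 20-gene scale PFKL was -1.62 with an adjusted p of 0.232. PFKM had a fitted log2 difference of 2.30 (SE 1.13, adjusted p = 0.102) and passed without CTRL replicate 2 (2.17, adjusted p = 0.00712). A single row, NM_001354745.1, held all 340 shALDH1A1 counts of PFKM. In CTRL the same row held 26.4% of 246 counts, which were spread over 11 rows. The PFKL counts of CTRL lay mostly (94.1%) on NM_002626.6.

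**Figure D3:**
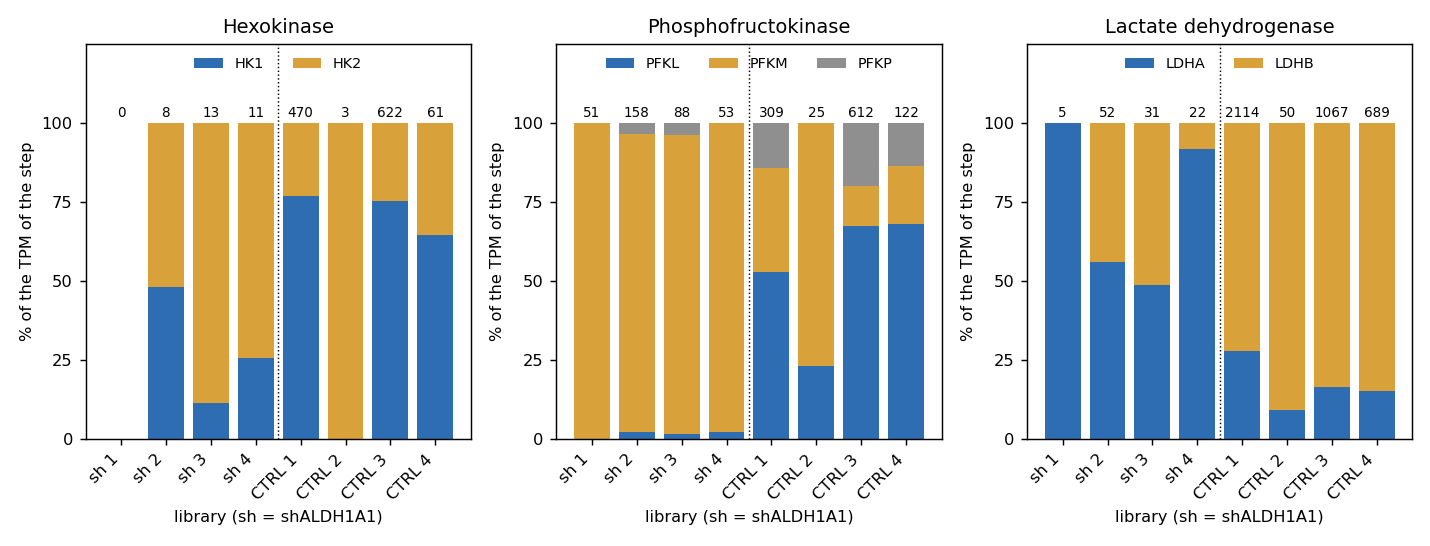
Percent of the TPM of each step held by each isozyme, by library, with the summed counts of the step above each bar. For phosphofructokinase PFKM (yellow) fills over 94% of every shALDH1A1 bar, and for lactate dehydrogenase LDHB (yellow) fills 72.2 to 90.7% of the CTRL bars. Hexokinase has no bar in shALDH1A1 replicate 1, where it had 0 counts.

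The bifunctional 6-phosphofructo-2-kinases set the level of fructose 2,6-bisphosphate, an activator of phosphofructokinase. PFKFB2, known from heart, had 2, 17, 3 and 25 counts in shALDH1A1 libraries and 79.99, 1, 120 and 14.99 in CTRL libraries. PFKFB3, the inducible form of many proliferating cells, had 0, 0, 7 and 3 counts in shALDH1A1 libraries and 45, 0, 48 and 2 in CTRL libraries. PFKFB4 had 1 count in shALDH1A1 and 11 in CTRL. PFKFB2 held most counts of this step in both groups, 81.0% (68.6 to 90.1%) of 58 in shALDH1A1 and 67.1% (61.7 to 72.2%) of 322 in CTRL. Its fitted log2 difference was 0.41 (SE 0.90, adjusted p = 0.707), a value that was negative under 6 alternatives. The rows differed, with 61.5% of the shALDH1A1 counts on XM_005273162.3 and 35.1% of the CTRL counts on NM_006212.2.

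FBP1, fructose-1,6-bisphosphatase, runs the phosphofructokinase step backwards in gluconeogenesis. It had 0, 0, 1 and 0 counts in shALDH1A1 libraries and 39, 6, 219 and 46 in CTRL libraries. FBP1 fell by 5.71 on the log2 scale (SE 1.25, adjusted p = 0.00122, edgeR), and it passed in every alternative of the scaling, the filter, the tool and the left-out library. With 1 count in shALDH1A1, the ratio of shALDH1A1 to CTRL counts on the TMM scale was 0.0141 with a counting interval of 0.000357 to 0.0793. That count was in shALDH1A1 replicate 3, and without this library the fitted value was -8.62, which is no bound because no shALDH1A1 count was left. Of the CTRL counts, 73.6% lay on NM_000507.4.

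TIGAR, a fructose-2,6-bisphosphatase that turns flux toward the pentose phosphate pathway, had 36.7, 40.0, 47.7 and 43.0 counts in shALDH1A1 libraries and 29, 12.0, 15 and 6 in CTRL libraries. In TPM it was 10.4, 15.3, 14.8 and 44.7 in shALDH1A1 libraries and 1.80, 14.6, 0.61 and 0.45 in CTRL libraries. CTRL replicate 2 alone lay within the shALDH1A1 range. In log2 units the fitted difference was 2.51 (SE 1.09, adjusted p = 0.0694), and without CTRL replicate 2 it was 3.31 (adjusted p = 0.000727).

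Aldolase cleaves fructose 1,6-bisphosphate, and ALDOA, the muscle and general form, carried it in both groups. ALDOA had 8, 63, 29 and 2 counts in shALDH1A1 libraries and 1637, 44.8, 979 and 485 in CTRL libraries. ALDOC, the brain form, had 0, 0, 4 and 0 counts in shALDH1A1 libraries and 31, 2, 112 and 24 in CTRL libraries. ALDOA made up 96.2% (90.6 to 99.0%) of 106 aldolase counts in shALDH1A1 and 94.9% (94.1 to 95.6%) of 3314 in CTRL, so the mix was not detectably different at this depth. ALDOC fell by 2.82 on the log2 scale (SE 1.01, adjusted p = 0.0313, edgeR), with all 4 of its shALDH1A1 counts in replicate 3. It did not pass without shALDH1A1 replicate 1, 2 or 4 or CTRL replicate 1 or 3 (adjusted p = 0.0535 to 0.170), and without shALDH1A1 replicate 3 it was -7.67. ALDOA had a fitted log2 difference of -2.27 (SE 1.25, adjusted p = 0.136) although its TPM did not overlap between the groups. ALDOA passed without CTRL replicate 2 (-3.55, adjusted p = 0.000302) and without CTRL replicate 4 (-3.40, adjusted p = 0.00703). The row NM_184041.5 held 100% of the shALDH1A1 counts and 88.8% of the CTRL counts of ALDOA.

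TPI1, triosephosphate isomerase, interconverts the products of aldolase. It had 1, 21, 22 and 2 counts in shALDH1A1 libraries and 807, 18, 685 and 316 in CTRL libraries. GAPDH, which oxidises glyceraldehyde 3-phosphate, had 17, 154, 126 and 7 counts in shALDH1A1 libraries and 5462, 133, 1805 and 984 in CTRL libraries. In TPM, GAPDH was 35.4, 435, 290 and 54.6 in shALDH1A1 libraries and 2566, 1198, 565 and 557 in CTRL libraries, without overlap. The log2 fold changes were -2.51 (SE 1.19, adjusted p = 0.0912) for TPI1 and -2.05 (SE 1.41, adjusted p = 0.222) for GAPDH. TPI1 passed without CTRL replicate 2 (-3.90, adjusted p = 0.000143) and without CTRL replicate 4 (-3.62, adjusted p = 0.00283). GAPDH passed without CTRL replicate 2 (-3.40, adjusted p = 0.000655) and without CTRL replicate 4 (-3.40, adjusted p = 0.0202), and it was 0.36 on the 20-gene scale.

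PGK1, phosphoglycerate kinase of somatic cells, makes the first ATP of the pathway. It had 86.4, 114, 80.5 and 26.7 counts in shALDH1A1 libraries and 401, 24.8, 287 and 136 in CTRL libraries. In TPM it was 42.5, 75.4, 43.4 and 48.3 in shALDH1A1 libraries and 43.3, 52.3, 20.5 and 17.7 in CTRL libraries. The ranges overlap, with CTRL replicates 3 and 4 lowest. PGK1 was above GAPDH, its neighbour in the pathway, in TPM in shALDH1A1 replicate 1, and below it in the other 7 libraries. For PGK1 the fitted log2 difference was 0.78 (SE 1.06, adjusted p = 0.535) and turned negative with DESeq2 and with 2 other scalings.

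Phosphoglycerate mutase was PGAM1, the brain and general form, in both groups. PGAM1 had 2, 5, 7 and 8 counts in shALDH1A1 libraries and 422, 12, 195 and 129 in CTRL libraries. PGAM2, the muscle form, had no count in shALDH1A1 libraries and 17.2, 0, 5.80 and 0 counts in CTRL libraries. PGAM1 fell by 2.75 on the log2 scale (SE 1.00, adjusted p = 0.0339, edgeR), but it did not pass without shALDH1A1 replicate 1, 2 or 4 or without CTRL replicate 1 (adjusted p = 0.0857 to 0.0963), and its TPM overlapped between the groups. On the 20-gene scale it was 0.80. Of its 22 shALDH1A1 counts, 14.99 lay on NM_001317079.1, a row with 1.99% of the CTRL counts, which lay on NM_002629.4.

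Enolase forms phosphoenolpyruvate, and ENO1, the general form, led in the sums of both groups. ENO1 had 2, 33, 5 and 0 counts in shALDH1A1 libraries and 615, 27, 494 and 173 in CTRL libraries. ENO2, the neuronal form, had 5, 0, 0 and 3 counts in shALDH1A1 libraries and 103, 4, 78 and 9 in CTRL libraries. ENO3, the muscle form, had none in shALDH1A1 and 28 in CTRL libraries. ENO1 made up 83.3% (69.8 to 92.5%) of 48 enolase counts in shALDH1A1 and 85.5% (83.6 to 87.2%) of 1531 in CTRL. In shALDH1A1, 33 of the 40 ENO1 counts came from replicate 2. For ENO1 the fitted log2 difference was -2.43 (SE 1.19, adjusted p = 0.103). It passed without shALDH1A1 replicate 2 (-4.44, adjusted p = 0.0228), without CTRL replicate 2 (-3.55, adjusted p = 0.000861) and without CTRL replicate 4 (-3.53, adjusted p = 0.00339).

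Pyruvate kinase yields pyruvate and ATP. PKM, the form of muscle and proliferating cells, had 7, 28, 19 and 20 counts in shALDH1A1 libraries and 899, 35, 696 and 213 in CTRL libraries. PKLR, the liver and red blood cell form, had no count in shALDH1A1 libraries and 1.77 in CTRL replicate 3. PKM had a fitted log2 difference of -2.14 (SE 1.08, adjusted p = 0.11), and it passed without CTRL replicate 2 (-3.00, adjusted p = 0.000386) and without CTRL replicate 4 (-3.02, adjusted p = 0.0103). The rows under it differed between the groups. NM_002654.6 held 1554 of the CTRL counts (84.3%) and none of the 74 shALDH1A1 counts. The shALDH1A1 counts lay on NM_001206799.2 (49.2%) and XM_005254445.5 (40.7%), which held 0.571 and 6.42% in CTRL. How the reads of shared exons were divided among the rows was set by the authors' estimation, and this difference was not tested.

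Lactate dehydrogenase is a tetramer of LDHA, the muscle-type subunit associated with lactate production, and LDHB, the heart-type subunit. LDHA had 5, 36, 19.0 and 21 counts in shALDH1A1 libraries and 827, 8, 278 and 174 in CTRL libraries. LDHB had 0, 16, 12 and 1 counts in shALDH1A1 libraries and 1287, 42, 789 and 515 in CTRL libraries. LDHB was thus the more counted subunit in every CTRL library and the less counted in every shALDH1A1 library.

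In TPM the LDHB share of the step was 0, 43.8, 51.4 and 8.16% in shALDH1A1 libraries and 72.2, 90.7, 83.4 and 84.7% in CTRL libraries, without overlap. The first of these rests on 5 counts, so the step did not meet the minimum of 10 in all libraries. Over the libraries that met it, the LDHB share was 34.5 ± 23.1% in shALDH1A1 (SD, n = 3) and 82.8 ± 7.70% in CTRL (SD, n = 4). With a minimum of 5 counts, chosen as an alternative, the difference in mean share was -56.9 points (p = 0.0286 by exact permutation, two-sided, adjusted p = 0.0429 over 3 steps). In shALDH1A1 replicates 1 and 4 this minimum was met through LDHA (5 and 21 counts), with LDHB at 0 and 1. The same limit therefore holds for this p-value as for that of the PFKL share.

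As levels, LDHB was 19.8 ± 20.01 TPM in shALDH1A1 and 374 ± 157 TPM in CTRL cells (SD, n = 4 each), and it fell by 3.86 on the log2 scale (SE 1.35, adjusted p = 0.0280, edgeR). It did not pass without shALDH1A1 replicate 1, 2 or 4 (adjusted p = 0.0524 to 0.0896), nor on the 20-gene scale (-1.60, adjusted p = 0.242). LDHA was 6.17, 57.0, 25.7 and 86.3 TPM in shALDH1A1 libraries and 229, 38.2, 48.2 and 51.6 TPM in CTRL libraries. The LDHA ranges overlapped, and CTRL replicate 1 stood alone at the top. Its fitted log2 difference was -1.35 (SE 1.05, adjusted p = 0.281). LDHA was called lower with median-of-ratios factors (-2.52, adjusted p = 0.0251), total counts as library size (-2.94, adjusted p = 0.0231), no filter (-2.31, adjusted p = 0.0391) and DESeq2 (-2.59, adjusted p = 0.0119). It also passed as lower without CTRL replicate 2 (-2.51, adjusted p = 0.00316) and without CTRL replicate 4 (-2.37, adjusted p = 0.0381), and was 2.05 on the 20-gene scale. The main rows were NM_005566.4 for LDHA, with 77.4% of its shALDH1A1 counts and 64.8% of its CTRL counts, and NM_002300.8 for LDHB, with 99.8 and 100% of them.

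The start regions of both subunit genes are shown because their ratio differed between the groups. Of 2 LDHA windows the more upstream is given. Each runs from 250 bases before to 50 bases after the start in the RefSeq annotation of GRCh38.p14, with matches to ACGTG on either strand in capitals. ACGTG is the core letters of the motif bound by hypoxia-inducible factors, and the overlapping CACGTG is the E-box of MYC and related factors.
LDHA, chr11:18394313-18394612, plus strand: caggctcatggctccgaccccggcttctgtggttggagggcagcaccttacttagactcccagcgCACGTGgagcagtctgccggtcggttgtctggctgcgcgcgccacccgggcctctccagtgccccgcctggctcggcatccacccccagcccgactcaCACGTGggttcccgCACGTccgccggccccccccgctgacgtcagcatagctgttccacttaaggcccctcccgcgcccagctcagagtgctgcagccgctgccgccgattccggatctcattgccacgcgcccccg
LDHB, chr12:21657793-21658092, minus strand: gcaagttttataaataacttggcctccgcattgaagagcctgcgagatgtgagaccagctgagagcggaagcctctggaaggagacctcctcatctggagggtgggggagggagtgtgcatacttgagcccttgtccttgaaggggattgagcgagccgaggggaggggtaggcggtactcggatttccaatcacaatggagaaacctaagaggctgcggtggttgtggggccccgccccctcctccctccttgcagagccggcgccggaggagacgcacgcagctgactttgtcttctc
The LDHA window shown holds 3 runs of matches, the other LDHA window none and the LDHB window none. Across members, 34 genes had windows in the table, and ACGTG was in 21 of 62 member windows (33.9%), against 7518 of 35116 windows of all genes (21.4%). CACGTG was in 12.9% of member windows and in 7.26% of all windows. A match is a description of letters, and whether any factor bound there was not measured.

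The 6 pentose phosphate enzymes among the members had 0 to 17 counts in each shALDH1A1 library. In the oxidative branch, PGLS, 6-phosphogluconolactonase, had 0, 4, 1 and 0 counts in shALDH1A1 libraries and 98, 1, 87 and 34 in CTRL libraries, too few for the test. PGD, phosphogluconate dehydrogenase, which makes NADPH, had 1, 10, 2 and 0 counts in shALDH1A1 libraries and 131, 3, 226 and 95 in CTRL libraries. PGD had a fitted log2 difference of -2.50 (SE 1.05, adjusted p = 0.0621) and passed without CTRL replicate 2 (-3.66, adjusted p = 0.000785), CTRL replicate 4 (-3.19, adjusted p = 0.0149) or shALDH1A1 replicate 2 (-4.22, adjusted p = 0.0124). H6PD, an enzyme of the endoplasmic reticulum outside the 37, had 64.8, 36.9, 69.3 and 35.8 counts in shALDH1A1 libraries and 62, 12.1, 279 and 7 in CTRL libraries.

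In the branch that interconverts sugars, RPIA, ribose 5-phosphate isomerase, had 2, 4, 0 and 3 counts in shALDH1A1 libraries and 36, 3, 69 and 17 in CTRL libraries. RPE, ribulose-phosphate epimerase, had 1, 0, 3.02 and 3.16 counts in shALDH1A1 libraries and 108, 9.68, 78.8 and 58.2 in CTRL libraries. TKT, transketolase, had 0, 17, 11 and 1 counts in shALDH1A1 libraries and 270, 12, 307 and 144 in CTRL libraries. These genes were lowest in different shALDH1A1 libraries. TALDO1, transaldolase, had 4, 7, 1 and 1 counts in shALDH1A1 libraries and 229, 6, 299 and 128 in CTRL libraries.

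RPE fell by 3.27 (SE 1.01, adjusted p = 0.0143) and TALDO1 fell by 3.26 (SE 1.02, adjusted p = 0.0156) on the log2 scale with edgeR. RPE did not pass without shALDH1A1 replicate 1 or 4 (adjusted p = 0.0550 and 0.0510), and TALDO1 lost its call without shALDH1A1 replicate 4 (adjusted p = 0.0754). TALDO1 was 10.4 ± 7.97 TPM in shALDH1A1 and 89.2 ± 25.7 TPM in CTRL cells (SD, n = 4 each), without overlap. RPIA (-1.58, adjusted p = 0.103) and TKT (-2.02, adjusted p = 0.135) did not pass. Without CTRL replicate 2 both did (RPIA -2.03, adjusted p = 0.0241, and TKT -3.24, adjusted p = 0.00151), as did TKT without CTRL replicate 4 (-2.95, adjusted p = 0.0138). On the 20-gene scale RPE, TALDO1, RPIA and TKT all had positive values, 0.15 to 1.90, and none passed.

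Of 35 other genes of glucose metabolism in the table, 11 were tested, with a median log2 fold change of -0.16 beside -1.44 over all tested genes. Of these, 2 fell, against the 33.0% above, and none was higher, against 2.60% of all genes. At an unadjusted p under 0.05, 1 (SLC2A4) was higher, as were 7.46% of all genes. DESeq2 called 2 of 24 higher, against 9.45%. LDHD, a mitochondrial D-lactate dehydrogenase, had 0 counts in every shALDH1A1 library and 50, 3, 155 and 21 in CTRL libraries. It fell by 7.88 on the log2 scale (SE 1.51, adjusted p = 0.000725, edgeR). The size of that change is no bound because LDHD had no shALDH1A1 count, and with DESeq2 it was -6.50.

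**Figure D4:**
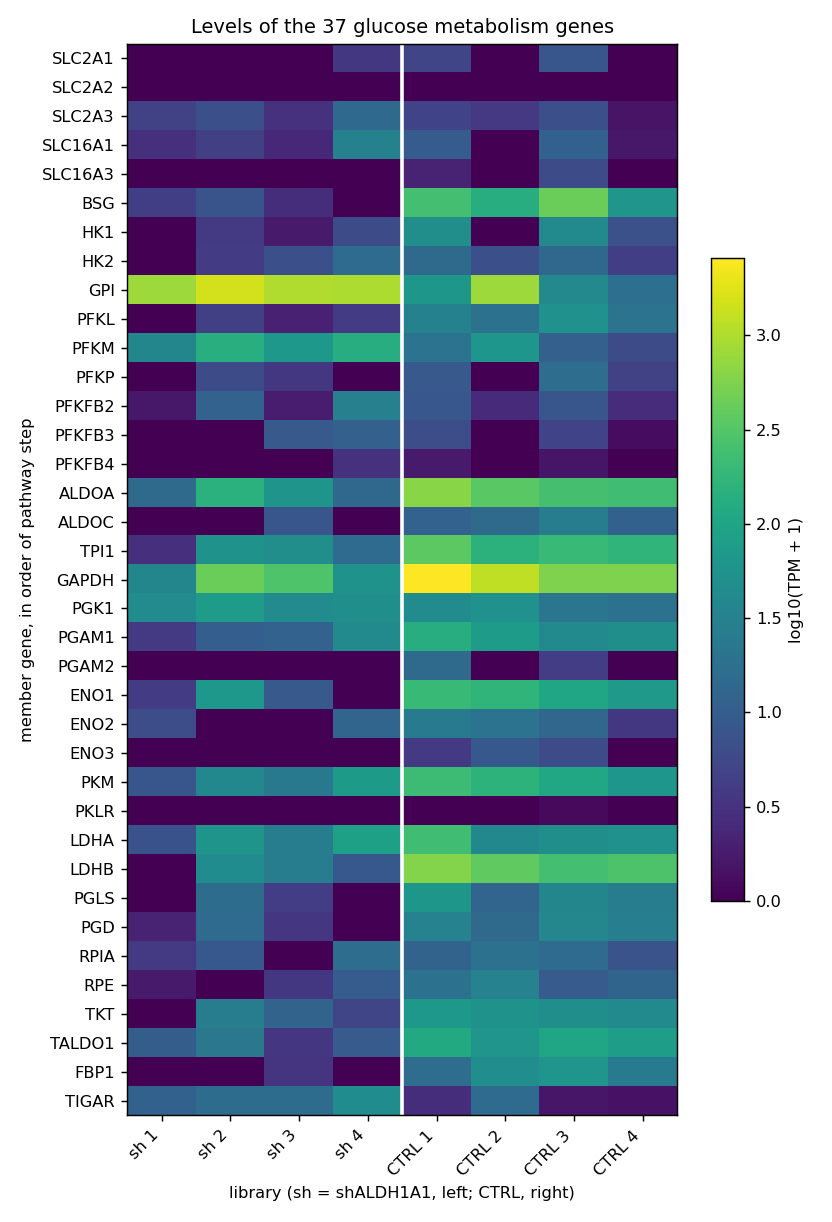
Level of each of the 37 members in each library as log10(TPM + 1), in order of the pathway. The GPI row is bright in the shALDH1A1 columns and in CTRL replicate 2, while ALDOA, TPI1, GAPDH, ENO1, PKM and LDHB are brighter in the CTRL columns.

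The 5 members with positive log2 fold changes, none of them called higher, shared a feature that the choice of genes did not use, the length of their rows. The values of PFKFB2 and PGK1 turned negative under 6 and 3 alternatives. Effective length, taken from the ratio of counts to TPM and given relative to the GAPDH row, was 3.65 for the GPI row with most counts, 3.02 for PFKM, 4.29 for PGK1, 7.41 for TIGAR and 6.55 for PFKFB2. The PFKFB2 length is that of NM_006212.2, from 1 library, a row with 0.298% of its shALDH1A1 counts. Its main shALDH1A1 row, XM_005273162.3, had 5.99. The 8 members called lower had lengths between 0.918 (TALDO1) and 2.81 (RPE). HK2, at 4.80, was long and had a log2 fold change of -1.08. Across the 23 tested members, which share libraries, Spearman's rho between effective length and log2 fold change was 0.65 (Pearson's r with log2 length 0.71). Without GPI, PFKM, PGK1 and TIGAR it was 0.41 over 19 genes (r = 0.52).

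**Figure D5:**
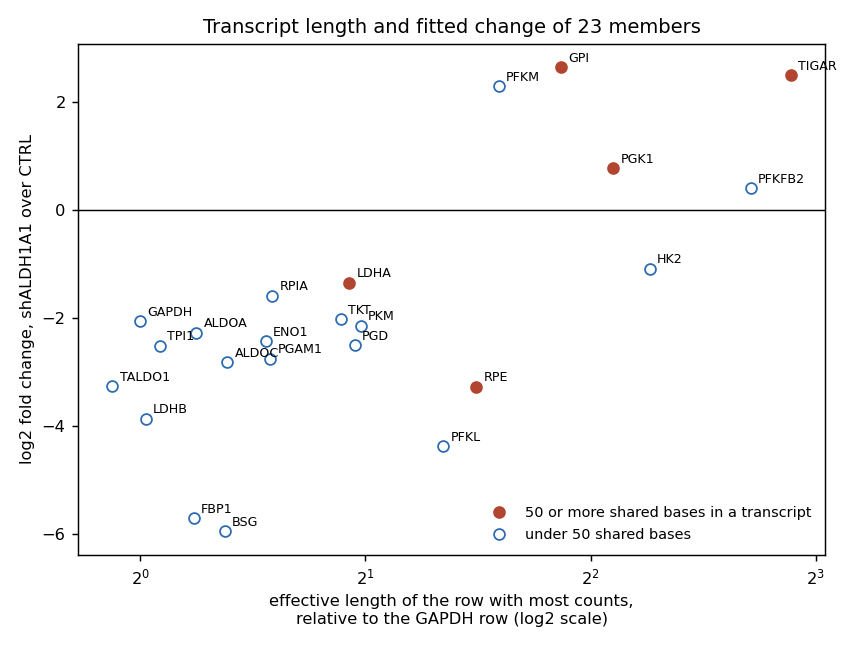
Effective length of the row with most counts (log2 axis, relative to the GAPDH row) and log2 fold change, shALDH1A1 over CTRL, for the 23 tested members. Filled points have at least 50 shared bases in a GENCODE transcript. The 5 members above the line at 0 all lie at or beyond a length of 3.02.

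GPI, TIGAR and PGK1 also held long stretches of sequence that occur in the transcripts of many genes. Shared bases were those in any run of 16 bases found in the longest coding transcript of at least 100 of 19807 genes. The most in any transcript was 746 for GPI, 713 for TIGAR and 388 for PGK1, all in the 3′ UTR. In GRCh37 they lay at chr19:34891654-34892998 for GPI, chr12:4462730-4467449 for TIGAR and chrX:77383779-77384681 for PGK1. PFKM held none in its 20 coding transcripts, nor did PFKL, LDHB, BSG and FBP1, while RPE held 77 and LDHA 53. Even so, the shALDH1A1 counts of PFKM were not whole (51.12, 151.32, 85.25 and 52.11), though all lay on NM_001354745.1. Counts of PGK1, which has a single row, were not whole either (86.44, 113.82, 80.48 and 26.7), whereas those of TALDO1 were (4, 7, 1 and 1). The search covered GENCODE transcripts and not the deposited rows, and whether PFKM reads were shared with other genes was not tested. In all, 9 members held at least 50 shared bases. Among them SLC16A3 held 242, SLC2A3 180, ENO2 68 and HK1 59, and none of these was tested. SLC16A3 had no count in any shALDH1A1 library. Among all 7868 tested genes with a searched transcript, 39.6% held at least 50 shared bases, as did 77.4% of the genes called higher and 12.1% of those called lower. Genes with at least 50 shared bases held 85.9, 83.5, 84.7 and 79.9% of the counts in shALDH1A1 libraries and 26.1, 72.5, 29.4 and 26.2% in CTRL libraries, so CTRL replicate 2 was near the shALDH1A1 libraries here too. Where the reads of a gene fell along its transcript is not in these data, and the part of shared sequence in the values of GPI, TIGAR, PGK1 and PFKM was not tested.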

How the data were processed

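The 4 shALDH1A1 and 4 CTRL libraries of HT29 RNA were analysed. The authors deposited expected counts (not normalized, from RSEM) and TPM for 84798 transcript rows. Per the paper's methods, reads passed CASAVA and FASTQC and were aligned with HISAT to hg19, whereas the submitters' processing notes name Bowtie2, BWA and GRCh38.p13, so the build of the rows is not settled and no coordinate is taken from them. Of the non-zero counts, 64.7% were not whole at a tolerance of 0.001.

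Counts and TPM were summed per gene symbol, and counts were rounded. Fold changes are from the two-sided quasi-likelihood test of edgeR 4.0.16 with TMM factors, after filterByExpr (10 counts at least, 15 in total) and with Benjamini-Hochberg adjustment over all tested genes. Genes with adjusted p under 0.05 were called. Dividing the size of a log2 change by the root of its F statistic gave its SE. Isozyme shares are of the summed TPM of a step and were tested by exact two-sided permutation where all 8 libraries had at least 10 counts. Intervals of shares are exact (Clopper-Pearson, 95%) on counts. DESeq2 1.42.0, limma 3.58.1 on log2(TPM + 1), other scalings and filters, a replicate block and fits without each library were alternatives, in R 4.3.3. Fold changes of limma are on the log2(TPM + pseudocount) scale, which understates low genes.

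All 37 members are named. Counts or values are given by library for members that were tested or had at least 50 counts in all. Other genes of the pathway are named where tested, by smallest unadjusted p. Rows are named where they hold most of a member's counts. The members and lists were chosen with earlier results of these data known. Shared sequence was searched in GENCODE v44 transcripts of GRCh37, and promoters came from RefSeq. Single values of some further genes are not reported here.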

Additional observations from a re-analysis of the deposited data

Results flagged for a closer look

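In each group of 4 libraries, the gap from the highest or lowest value to the next was divided by the range of all 4. This ratio, Dixon's, was taken over 61 groups of values. In 12 of them 1 library stood apart by a cutoff whose 5% rate holds only for independent normal values. Many values here lie near 0 and several groups restate GPI. A group with counts in 1 library alone always stands apart, so the 12 cannot be set against that rate. Replicate 2 of CTRL stood apart in 4 groups. It had 820 TPM of GPI and 14.6 TPM of TIGAR, and GPI held 43.9% of its member counts and 21.1% of its member TPM. Replicate 1 of CTRL stood apart with 229 TPM of LDHA and with 0.674% of its counts in the 37 members. Replicate 3 of CTRL stood apart with 0.191% of pyruvate kinase TPM from PKLR, which rests on 1.77 counts.

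Among shALDH1A1 libraries, replicate 2 stood apart with 63.9 TPM of ENO1 and 14.8 TPM of PGD. Replicate 3 stood apart with 7.09 TPM of ALDOC and 2.25 TPM of FBP1, the only shALDH1A1 library with any count of either gene. Replicate 4, the shallowest of them, stood apart with 44.7 TPM of TIGAR from 43.0 counts.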

How the results depend on the processing

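Members called lower numbered 17 of 23 with DESeq2 median-of-ratios factors and with total counts as library size (52.6 and 52.0% of all genes tested), 1 of 23 on the 20-gene scale (5.01%), 21 of 36 with no filter beyond 1 count (39.6%), 20 of 34 with DESeq2 (47.8%), 15 with limma on log2(TPM + 1), of 33 with its filter (30.7%) and of 36 without (23.0%), 13 of 33 at a pseudocount of 0.1 (29.8%), and 0 at an adjusted p under 0.001 and an absolute log2 fold change over 1. They numbered 4 to 21 when 1 library was left out. Members called higher, 0 in the report, numbered 1 with median-of-ratios factors (11.3% of all genes) and with no filter (7.01%), 5 on the 20-gene scale (43.6%), 3 with DESeq2 (9.45%), 2 in each limma fit (6.20 to 9.12%), and 0 to 3 when 1 library was left out.

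Other pathway genes called lower, 2 of 11 in the report (33.0% of all genes tested), numbered 4 of 11 with median-of-ratios factors (52.6%). They numbered 1 of 11 on the 20-gene scale (5.01%) and 1 of 11 at the stricter threshold (4.89%). With no filter they numbered 9 of 30 (39.6%) and with DESeq2 9 of 24 (47.8%). Each limma fit gave 8, of 24 at a pseudocount of 1 (30.7%) or 0.1 (29.8%), and of 30 with no filter (23.0%). When 1 library was left out, 2 to 10 of 11 to 17 were lower (22.5 to 60.4%). Those called higher, 0 of 11 in the report (2.60%), numbered 1 of 11 with median-of-ratios factors (11.3%) and 6 of 11 on the 20-gene scale (43.6%). They numbered 2 of 30 with no filter (7.01%), 2 of 24 with DESeq2 (9.45%) and 2 of 24 with limma on log2(TPM + 1) (9.12%). In the other limma fits 1 was higher (8.25 and 6.20%), and 0 to 2 were when 1 library was left out (0.63 to 17.3%).

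Directions turned mostly on the 20-gene scale, where the log2 fold change was 1.90 for HK2, 0.29 for ALDOA, 0.36 for GAPDH, 0.80 for PGAM1, 1.14 for PKM, 2.05 for LDHA, 0.16 for PGD, 1.90 for RPIA, 0.15 for RPE, 0.21 for TKT and 0.24 for TALDO1. PFKFB2 was -0.44 with median-of-ratios factors, -0.52 with total counts, -0.18 with no filter, -0.50 with DESeq2, and -0.34 to 0.98 when 1 library was left out. PGK1 was -0.064 with median-of-ratios factors, -0.95 with total counts and -0.11 with DESeq2. With limma at a pseudocount of 0.1, PGAM1 (-2.63, adjusted p = 0.0582) and RPE (-3.71, adjusted p = 0.0504) lost their calls, as did ALDOC on the 20-gene scale (-0.32, adjusted p = 0.826). FBP1 and LDHD kept their calls in all 17 alternatives. The cause of these changes was not tested.

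The PFKL share differed by -61.3 to -46.2 points when 1 library was left out. The LDHB share differed by -56.8 to -35.2 points and the HK2 share by 46.8 to 60.9 points. For these 3 isozymes neither the share of counts nor a minimum of 5 counts turned a direction. At that minimum the untested shares of ENO1 (-10.7 points, against 11.1 at 10 counts) and ALDOC (-1.13 against 0.738 points) did turn, with 1 to 3 shALDH1A1 libraries behind each.

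Replicate numbers did not pair the libraries. Same-numbered libraries deviated together with correlations of -0.35, -0.11, -0.14 and 0.10, and none had its own number as best partner. With the replicate block, 10 members were lower (31.5% of all genes) and 1 (TIGAR) was higher (12.9%). PGAM1 lost its call (-2.79, adjusted p = 0.0547), TPI1, ENO1 and PGD gained one (adjusted p = 0.0455, 0.0208 and 0.0446), and 2 other pathway genes were lower and 2 higher. The PFKL share with the block differed by -51.3 points, where 4 pairs cannot go below an exact p of 0.125.

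Members with at least 10 counts numbered 5 in shALDH1A1 replicate 1, with 1908803 counts in all, and 25 in CTRL replicate 4, with 1667958.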
